A study of Mus musculus with 4 samples.

Results

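Vascular and leptomeningeal fibroblasts are the collagen-producing cells of the membranes that cover the brain and of the sheaths around its larger vessels. Here they were 96 of 30939 nuclei kept from droplet single-nucleus RNA sequencing of the mouse hypothalamic paraventricular nucleus (PVN), which holds neuroendocrine neurons. A barcode was kept with at least 500 detected genes and at most 5% of its unique molecular identifiers (UMIs, counted transcripts) from mitochondrial genes. A kept nucleus was taken as a fibroblast when 7 marker genes, Dcn, Col1a2, Col1a1, Slc6a13, Ranbp3l, Lum and Bnc2, summed to at least 5 UMIs from at least 3 of them. It also had to hold under 1% of its UMIs in the neuronal transcripts Meg3, Snhg11 and Syt1, and under 0.5% in the oligodendrocyte transcripts St18, Prr5l, Mag and Mog. The libraries were made at 2 zeitgeber times (ZT, hours after lights on), 2 at ZT8, in the light phase, and 2 at ZT20, in the dark phase. Per the labels each pooled micropunched PVN of 5 male C57Bl6 mice aged 10 weeks, with no transgene or drug named for either time, and the time was the only labelled difference. The labels do not say whether the replicates came from separate sets of mice, so p-values measure the spread between these libraries, which may be technical.

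Fibroblasts lay down the interstitial collagens, proteoglycans and laminins of the pia, the arachnoid and the perivascular space, and basement membrane forms where they meet the glial surface. Those of the meninges also carry transporters for GABA-related solutes, bile acids and organic cations, make retinoic acid, and secrete prostaglandin D synthase, a carrier protein of cerebrospinal fluid. Fibroblasts in culture and in many tissues have a cell-autonomous circadian clock, in which BMAL1 and CLOCK drive genes such as Per3, Nr1d2 and Dbp that feed back on them.

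The 4 libraries held 57970649 to 69223344 UMIs, with 6379 and 6893 nuclei kept at ZT8, and 8298 and 9369 kept at ZT20. Between 10 and 25 barcodes were shared by any 2 libraries. There were 23 and 39 fibroblast nuclei in the ZT8 libraries and 17 in each ZT20 library. Their summed UMIs were 148521 and 355158 at ZT8 and 57887 and 54774 at ZT20, so single-gene counts at ZT20 were low. Just inside the threshold, 2, 1, 3 and 0 nuclei (both ZT8 libraries, then both ZT20 libraries) had exactly 5 marker UMIs. Just outside it, 5, 2, 0 and 1 nuclei in the same order had 4 UMIs from at least 3 of the genes.

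Genes that the rule did not use are described next. Those most enriched over other nuclei in these same data were picked for naming. Their high levels against all other kept nuclei thus follow from that choice and cannot check the label. Since the nuclei were chosen by 7 of their genes, levels against other nuclei are given as a description without a test, in counts scaled to the class total (CPM, UMIs of a gene per 1e6 UMIs), averaged over the 4 libraries. Itih5, an inhibitor-family protein that binds the matrix polymer hyaluronan, was at 1119 CPM in fibroblast nuclei, against 258 in endothelial nuclei, 141 in mural nuclei (pericytes and smooth muscle) and 7.05 in all other kept nuclei. Cped1 was at 1469 CPM against 68.4, 366 and 16.5 in the same order. Lama1, the laminin chain of the pial basement membrane, was at 1021 CPM against 8.47, 0 and 13.2. Apod, a lipid-carrying secreted protein, was at 2455 CPM against 174, 109 and 49.5, and Igf2, a growth factor made by meninges, at 393 against 16.7, 28.3 and 1.26. Tbx18, a mesenchymal transcription factor, was at 342 CPM against 3.73, 66.3 and 0.768. Endothelial nuclei numbered 175 and mural nuclei 100, each found by the same form of rule with their own 7 markers. Mgp, a matrix protein of vessel walls, did not set fibroblasts apart from endothelium, at 950.0 against 977 CPM. Slc6a20a, an amino acid transporter, did not set them apart from mural nuclei, at 726 against 947 CPM.

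Not all members held the markers at the same strength. In 90 of the 96 nuclei the 7 genes made up 0.121 to 3.18% of the UMIs, with a median of 0.458%. In the other 6 they made up 0.0348 to 0.0719%, and these 6 were large, with 13905 to 69007 UMIs each. They were 3 nuclei of each ZT8 library and none at ZT20. They supplied 45.8 and 34.4% of all fibroblast UMIs in the 2 ZT8 libraries. Those with 15697, 39428 and 69007 UMIs also met the endothelial marker rule. They held 208, 439 and 539 UMIs of the endothelial markers, against 7, 17 and 24 of the fibroblast markers. The difference between the times is therefore given for all 96 nuclei and again without these 6, a division at 0.1% that was chosen after the values had been seen.

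**Figure D1:**
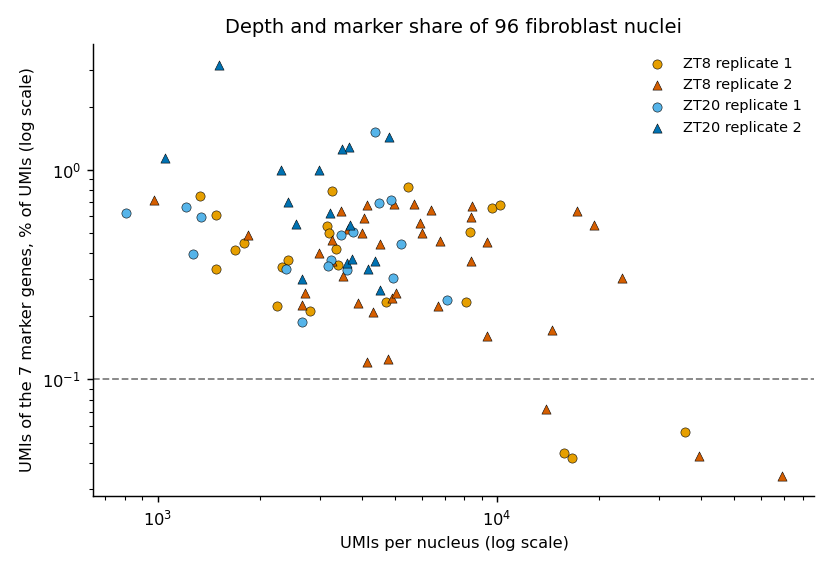
Each point is a fibroblast nucleus, with its UMIs on the x axis and the share of them in the 7 marker genes, in percent, on the y axis (both log scales), by library. The 6 points under the dashed line at 0.1% are all of ZT8 libraries and have 13905 UMIs or more.

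Markers of other classes differed between the times in the same nuclei. The 7 endothelial markers summed to 1555 and 3184 CPM at ZT8 and 328 and 73.0 CPM at ZT20 over all fibroblast nuclei, and to 261 and 657 CPM at ZT8 without the 6 nuclei. The 7 oligodendrocyte markers, 4 of which the rule limits, summed to 2579 and 1906 CPM at ZT8 and 622 and 602 at ZT20, and without the 6 nuclei to 1454 and 1499 at ZT8. The 7 astrocyte markers summed to 1649.6 and 1211 against 605 and 712 CPM, and the neuronal list to 3346 and 3086 against 2609 and 3323. With the 6 nuclei left out the neuronal list was at 1678 and 2246 CPM at ZT8, below both ZT20 libraries. Oligodendrocyte precursor markers summed to 969.6 and 1095 against 311 and 201 CPM, and to 497 and 1435 at ZT8 without the 6 nuclei. The ZT20 libraries were thus below both ZT8 libraries for oligodendrocyte, oligodendrocyte precursor and astrocyte markers with or without those nuclei, and for endothelial markers in ZT20 replicate 1 only with them. The 7 mural markers summed to 512 and 1149 CPM at ZT8 and 846 and 347 at ZT20. Without the 6 nuclei they summed to 684 and 417 CPM at ZT8, so the times overlapped in either case. Some single genes were at 0 UMIs at ZT20, while other members of their lists were detected there. These were the endothelial genes Mecom, Ptprb and Adgrl4, the mural genes Abcc9, Rgs5, Kcnj8 and Higd1b, and the astrocyte genes Aqp4 and Slc7a10. The choroid plexus marker Ttr had 1 UMI in all. The marker rule of another class was also met by 6 and 13 nuclei in the ZT8 libraries, against 1 and 0 in the ZT20 libraries. What part these transcripts had in the gene calls below was not tested, beyond the fits without those nuclei.

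**Figure D2:**
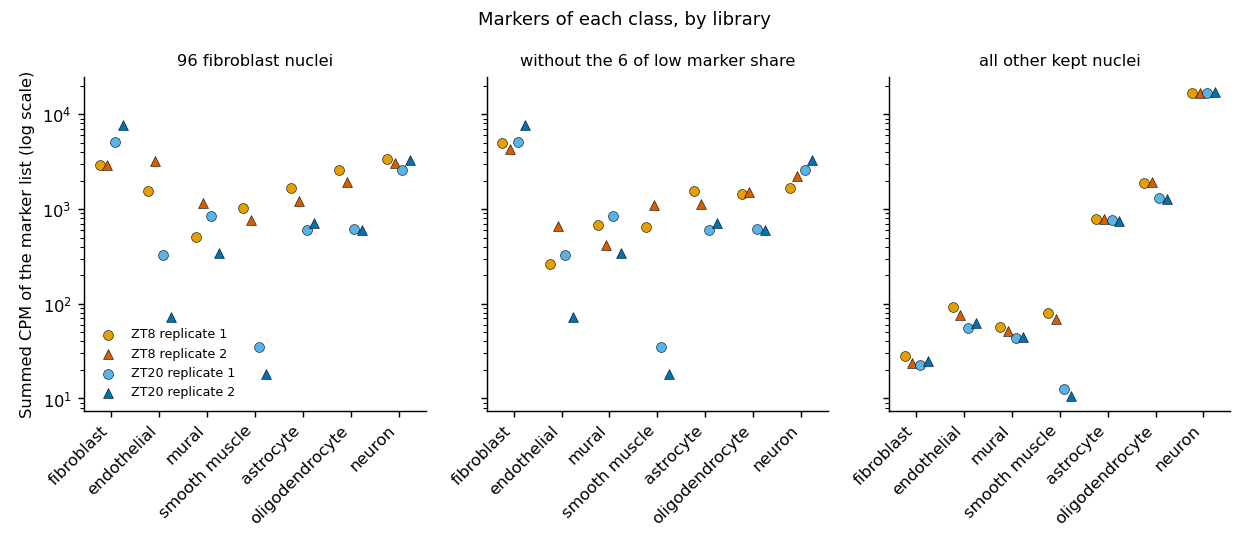
Summed CPM of each marker list (log scale) by library, in all fibroblast nuclei, in those without the 6 nuclei of low marker share, and in all other kept nuclei. Smooth muscle markers are at 34.6 CPM or less at ZT20 in all 3 panels.

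Fibroblast nuclei differed among themselves by which marker led. The 90 nuclei were divided, after their values had been seen and as a description only, by whether Dcn, Col1a2, Col1a1 and Lum together, Ranbp3l, or Bnc2 had the most UMIs. Matrix genes led in 42 nuclei, Ranbp3l in 27 and Bnc2 in 14, 7 were ties, and 11 lay within 1 UMI of another assignment. Nuclei led by matrix genes had the most Apod, 3818 CPM against 576 and 253 in the Ranbp3l-led and Bnc2-led nuclei. Nuclei led by Ranbp3l, a nuclear export cofactor, had the most Ptgds, the prostaglandin D synthase, at 9168 CPM against 1974 in matrix-led and 3908 in Bnc2-led nuclei. Nuclei led by Bnc2, a zinc finger transcription factor, had 1630 CPM of Slc47a1, an exporter of organic cations, against 116 and 38.8 in the matrix-led and Ranbp3l-led nuclei. The GABA and taurine transporter Slc6a13 was at 20.3 CPM there against 630.0 and 609, and the gap junction protein Gja1 at 496 against 186 and 207. Groups cut from per-nucleus counts are ranges and not cell types.

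The libraries differed in these proportions. Matrix genes led in 7 of 20 and 10 of 36 nuclei at ZT8 (35.0 and 27.8%) and in 11 of 17 and 14 of 17 at ZT20 (64.7 and 82.4%). Ranbp3l led in 7 and 16 nuclei in the ZT8 libraries, against 3 and 1 in the ZT20 libraries. Bnc2 led in 2 and 8 against 3 and 1. For the matrix-led and the Ranbp3l-led share the ZT20 libraries lay outside the range of the ZT8 libraries. An exact two-sided permutation test gave p = 0.33 for each of these shares, the smallest possible with these libraries. The groups are cut from genes that also chose the nuclei, and were set after the values had been seen. The test is therefore no support, and the shares are a description.

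**Figure D3:**
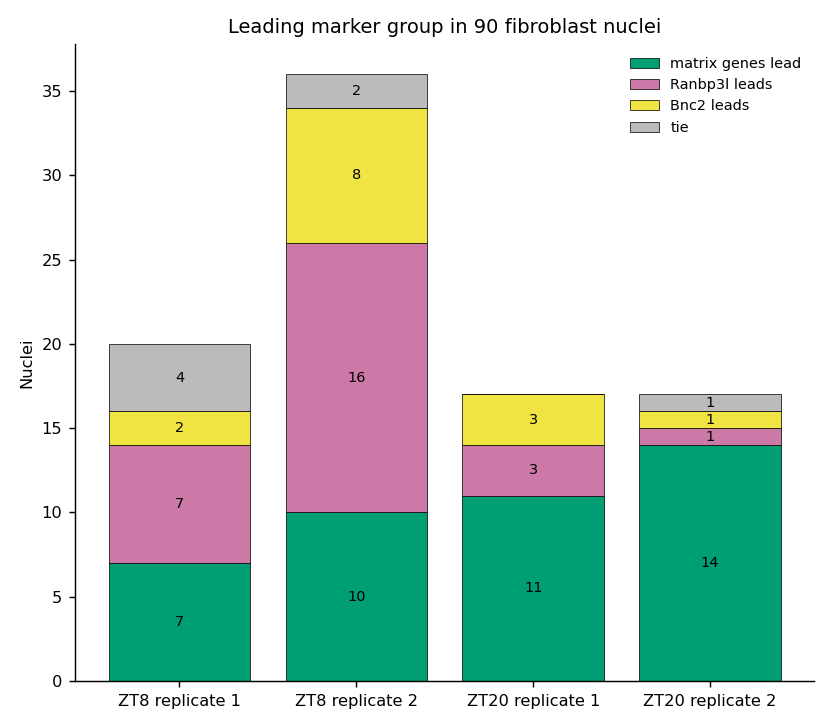
Number of fibroblast nuclei per library by the marker group with the most UMIs, without the 6 nuclei of low marker share. Matrix-led nuclei are 7 of 20 and 10 of 36 at ZT8 and 11 of 17 and 14 of 17 at ZT20.

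Fibroblast nuclei were 0.361 and 0.566% of kept nuclei at ZT8 (95% Clopper-Pearson intervals 0.229 to 0.541% and 0.403 to 0.773%) and 0.205 and 0.181% at ZT20 (0.119 to 0.328% and 0.106 to 0.290%). The intervals cover counting error only. The mean share was 0.463 ± 0.145% at ZT8 and 0.193 ± 0.0166% at ZT20 (SD, n = 2 libraries), and an exact two-sided permutation test gave p = 0.33, the smallest that 2 against 2 libraries allow. Counted against endothelial nuclei the order turned, since fibroblast nuclei came to 54.2 ± 4.41% of their number at ZT8 and 55.1 ± 5.02% at ZT20. After each nucleus was thinned to 2000 UMIs and shallower nuclei left out, the shares were 0.263 and 0.339% at ZT8 and 0.178 and 0.283% at ZT20, so the times overlapped (means 0.301 and 0.231%). Median UMIs per fibroblast nucleus were 3269 and 4958 for ZT8 against 3463 and 3491 for ZT20, so depth per nucleus overlapped between the times.

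Gene expression in fibroblast nuclei was then compared between ZT20 and ZT8. UMIs were summed per library, and the 2836 genes with enough counts were tested by edgeR's quasi-likelihood test with Benjamini-Hochberg adjustment. The filter on counts could be met by the libraries of either time alone. Genes of low counts could thus enter through the time at which they were high. At an adjusted p under 0.05, 65 genes were higher at ZT20 (2.29% of those tested) and 134 lower (4.72%), 199 in all (7.02%). The fit covered genes of the selection rule too, and without these there were 61 higher and 131 lower genes. Every called gene differed by over 1 on the log2 scale, and its ZT20 libraries lay outside both ZT8 libraries, which was so for 51.6% of all genes tested. Without the 6 nuclei of low marker share 1774 genes could be tested, 30 were higher (1.69%) and 56 lower (3.16%), 86 in all (4.85%), and 62 genes were called in both fits, all in the same direction, 26 higher and 36 lower. Without any nucleus that met another class's marker rule, 5 genes were higher and 5 lower of 1209 tested. DESeq2 called 15 higher and 56 lower of the 2836.

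Collagen chains, the structural proteins of fibrils and basement membranes, were the list with the most calls. Col1a1 and Col1a2 belong to the marker rule and are left out of the counts here. Of the 25 other chains 16 could be tested, 6 were higher and none lower (against 2.29% called higher among all genes), and their median log2 change was 1.54 against -0.03 over all genes tested. All 16 values were above 0. For chains of low counts the sign is no separate support, since the filter could be met by ZT20 alone. Of 13 tested without the 6 nuclei 1 was higher, Col4a6 (against 1.69% of all genes), with a median of 0.95. The 25 chains together summed to 2094 and 2351 CPM at ZT8 and 6046 and 5952 at ZT20, and to 2896 and 3264 CPM at ZT8 without the 6 nuclei. The ZT20 libraries were above both ZT8 libraries in either case.

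Col4a6 encodes a chain of the type IV network of basement membranes. It was at 236 and 175 CPM at ZT8 and 743 and 1077 at ZT20, a log2 change of 2.08 ± 0.35 (SE; edgeR adjusted p = 0.00507), and of 1.63 without the 6 nuclei. The ZT20 libraries were above both ZT8 libraries. Its neighbour and partner chain Col4a5 rose by 1.53 ± 0.36, and Col15a1, a collagen of the outer basement membrane zone, by 1.80 ± 0.39. Col3a1, the fibrillar collagen of vessel walls and loose tissue, was at 202, 115, 363 and 785 CPM in the same order of libraries and rose by 1.82 ± 0.44 (edgeR adjusted p = 0.0348). Col11a1 and Col23a1 rose by 1.81 and 1.66. The Col4a6 call held with any library left out but not in matrix-led nuclei (0.58) or without nuclei with markers of another class (1.09), whereas those of Col4a5, Col3a1, Col11a1, Col15a1 and Col23a1 were lost without ZT20 replicate 2 (log2 changes 1.12, 1.09, 1.52, 1.50 and 1.44). The call was also lost for Col4a5 without ZT8 replicate 1 (1.15), for Col3a1 and Col23a1 without ZT8 replicate 2 (1.30 and 1.29), and for Col11a1 without ZT20 replicate 1 (2.04).

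Among the matrix glycoproteins and basement membrane genes, 3 of 17 tested were higher (against 2.29% of all genes) and 6 of the 17 were below 0. Without the 6 nuclei 4 of 15 tested were higher (against 1.69% of all genes) and 1 was lower (against 3.16%). Lama1, on chromosome 17 from 67697259 to 67822647 (GRCm38), was at 404 and 346 CPM at ZT8 and 1434 and 1899 at ZT20, a log2 change of 2.07 ± 0.34 (edgeR adjusted p = 0.0047) that was 1.61 without the 6 nuclei. Nid1, which links laminin to type IV collagen and lies on chromosome 13 from 13437551 to 13512269, was at 108, 129.5, 518 and 602 CPM and rose by 2.12 ± 0.34 (edgeR adjusted p = 0.00457). For both genes the libraries of the 2 times did not overlap, and both calls held with any library left out. Lamc1, the shared gamma chain, was at 296, 199.9, 639 and 1095 CPM and rose by 1.74 ± 0.37, a call lost without ZT8 replicate 2 (1.35) or ZT20 replicate 2 (1.23). Lama2 did not pass, at 0.81 ± 0.32. In matrix-led nuclei alone Nid1 was at 266 and 332 CPM at ZT8 and 791 and 644 at ZT20, and Lama1 at 764, 1659.7, 2154 and 2146, neither of which passed there (1.12 and 0.70), nor did they without nuclei with markers of another class (1.31 and 0.99).

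Enzymes and secreted proteins that act on the matrix followed. Adamts12, a secreted protease of cartilage and connective tissue, was at 135 and 107 CPM at ZT8 and 501 and 803 at ZT20 and rose by 2.37 ± 0.37 (edgeR adjusted p = 0.00435). Pcolce, which speeds removal of the collagen propeptide, rose by 2.41 ± 0.51, from 53.9 and 50.7 to 155 and 438 CPM. Adamtsl3, a protease-like glycoprotein without catalytic activity, moved the other way, from 370.3 and 273 to 138 and 54.8 CPM (-1.78 ± 0.48, edgeR adjusted p = 0.0477), and by -2.48 without the 6 nuclei. These 3 were the calls among 8 tested of 25 in the list (against 2.29% of all genes called higher and 4.72% lower). Pcolce and Adamtsl3 were no longer called without ZT20 replicate 2 (1.41 and -1.35). Serpinf1, a secreted serpin, was at 20.2, 42.2, 207 and 329 CPM and rose by 2.83 ± 0.49. Ccn2, a matricellular growth regulator, was at 80.8, 115, 501 and 456 CPM and rose by 2.14 ± 0.36. In both genes ZT20 was above ZT8 in each library, and both calls held with any library left out. Neither held in matrix-led nuclei (3.37 for Serpinf1 and 0.23 for Ccn2) or without nuclei with markers of another class (2.72 and 1.86), and the Adamts12 call was lost there too (1.36 and 1.24). Tgfbi, another secreted matrix protein, was at 13.5, 14.1, 104 and 511 CPM, and rose by 4.29 ± 0.75. Trim62, a ubiquitin ligase gene, had the smallest p of the higher calls, at 13.5, 16.9, 138 and 128 CPM, and was not called without either ZT20 library.

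**Figure D4:**
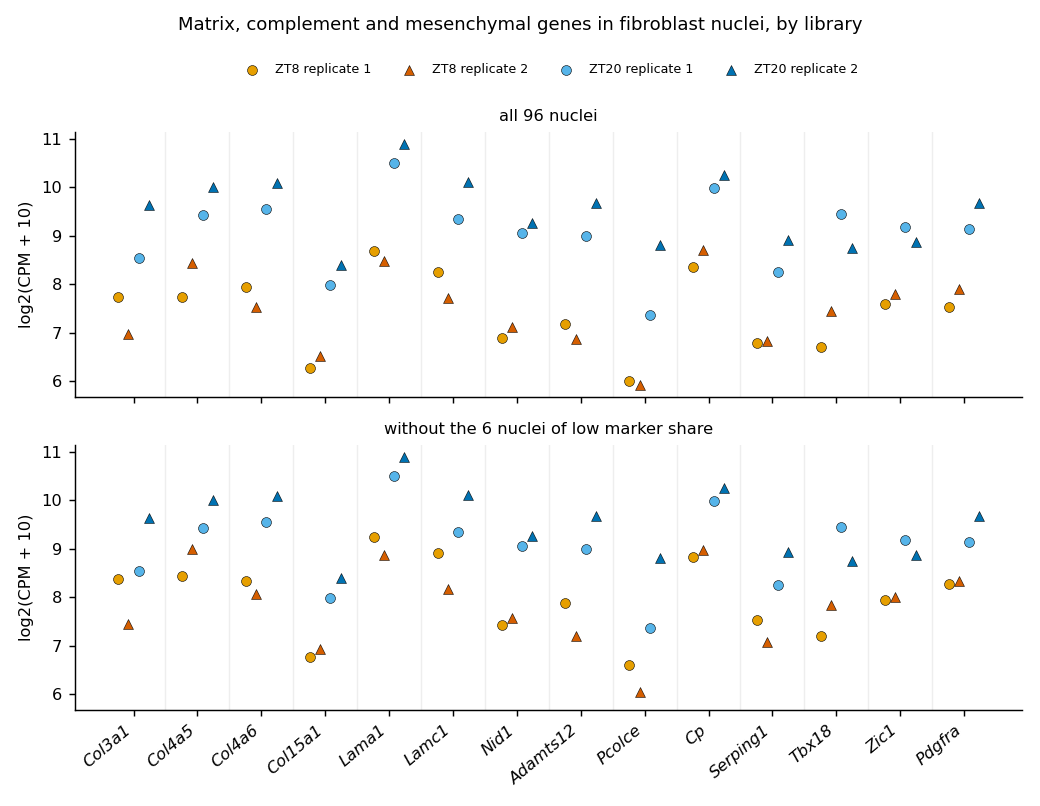
Expression of matrix, complement and mesenchymal genes as log2(CPM + 10) in each library, over all 96 fibroblast nuclei (top) and without the 6 nuclei of low marker share (bottom). In the top panel the ZT20 points of each gene lie above its ZT8 points, and they still do in the bottom panel.

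Levels of genes that chose the nuclei are a description only. Dcn, the small proteoglycan decorin on chromosome 10 from 97479609 to 97518143, was at 505 and 380.1 CPM at ZT8 and 1745 and 4089.5 at ZT20. Col1a1 was at 108, 135, 363 and 730.3 CPM and Slc6a13 at 229, 273, 570.1 and 913. Ranbp3l was at 1098 and 969 CPM at ZT8 and 639 and 548 at ZT20, and without the 6 nuclei at 1877 and 1443 CPM at ZT8. These counts also set the leading marker groups above.

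Transcripts of the secreted proteins Apod and Itih5 were higher at ZT20. Apod was at 532 and 848 CPM at ZT8 and 2159 and 6280.4 at ZT20, a log2 change of 2.52 ± 0.49 (edgeR adjusted p = 0.0125), and was called in all 15 alternative fits, with values from 1.19 to 3.05. Within matrix-led nuclei it was at 1560.3 and 2513 CPM at ZT8 and 2999.7 and 7104.5 at ZT20. Itih5 was at 444, 487, 1589 and 1954 CPM and rose by 1.84 ± 0.33 (edgeR adjusted p = 0.00694). Both genes separated the times in every library. The Itih5 call was lost in matrix-led nuclei (1.12) and without nuclei with markers of another class (1.21). Cp, the copper oxidase ceruloplasmin, and Serping1, the C1 inhibitor, were the 2 calls of 6 tested complement and immune genes (against 2.29% of all genes), of which 2 were below 0, up by 1.51 ± 0.33 and 1.80 ± 0.40. The Cp call was lost without ZT8 replicate 1 (1.26) and the Serping1 call without ZT20 replicate 2 (1.35).

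Regulators of mesenchymal identity and growth factor receptors were partly higher. For the counts per list that follow, the share called higher among all genes tested was 2.29%. Tbx18 was at 94.3 and 163 CPM at ZT8 and 691 and 419.9 at ZT20, a log2 change of 1.96 ± 0.39 (edgeR adjusted p = 0.0133), held with any library left out. It was 0.35 in matrix-led nuclei and 0.86 without nuclei with markers of another class, and passed in neither. Zic1 and Zfhx4, zinc finger factors of the meninges and neural crest derivatives, rose by 1.28 ± 0.33 and 1.49 ± 0.33. The other 12 of 15 tested transcription factors outside the marker rule did not pass, among them Tcf4 at 0.71 ± 0.32, Foxp1 at 0.25 ± 0.31 and Ebf1 at -0.41 ± 0.40. Of 16 tested growth factor genes Pdgfra, the receptor that marks many fibroblasts, rose by 1.64 ± 0.34, Fgfr1 by 1.35 ± 0.35 and the IGF binding protein gene Igfbp2 by 1.58 ± 0.40. Without the 6 nuclei of low marker share 1 of 13 tested genes of this list was higher (against 1.69% of all genes) and 1 lower (against 3.16%). Of 12 tested BMP, TGF-beta and Wnt genes the ligand gene Bmp5 rose by 2.03 ± 0.48, while Bmp6 was at 1.11 ± 0.33 and did not pass. Zic1, Zfhx4, Pdgfra, Igfbp2, Fgfr1 and Bmp5 each lost the call in at least 2 of the 4 fits that left out a library, with log2 values between 0.89 and 2.14. Clmp, an adhesion molecule of the tight junction family outside these lists, was at 87.5 and 87.3 CPM at ZT8 and 449 and 438 at ZT20 and rose by 2.25 ± 0.36.

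Of 20 tested transporters outside the marker rule 2 were higher (against 2.29% of all genes), the lipid transporters Abca8a and Abca9, which rose by 2.00 ± 0.46 and 1.32 ± 0.36. The Abca8a call was lost without ZT8 replicate 2 (1.47) or ZT20 replicate 2 (1.33), and the Abca9 call with any library left out (1.20 to 1.33). The cystine carrier Slc7a11 was at 0.48 ± 0.61, with 1071, 779.9, 415 and 2319 CPM. Slc7a11 thus varied more between the ZT20 libraries than between the times. No gene was called among 4 tested of the retinoic acid pathway, where the synthesis enzyme genes Aldh1a1 and Aldh1a2 were at 1.06 ± 0.34 and 0.13 ± 0.40, nor among 7 junction genes.

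Ptgds, on chromosome 2 from 25466709 to 25470046, did not pass the test over all 96 nuclei. It was at 4074 and 4086 CPM at ZT8 and 2678 and 1807 at ZT20, a log2 change of -0.95 ± 0.32 (edgeR adjusted p = 0.102). With the 6 nuclei left out the ZT8 libraries were at 6574 and 6043 CPM and the change was -1.56. In both sets ZT20 was below both ZT8 libraries. In all other kept nuclei Ptgds changed by 0.20. Trpm3, a cation channel gene abundant in these nuclei, was at 9729, 11294, 6703 and 3980.0 CPM and did not pass at -1.06 ± 0.31, and was at -1.64 without the 6 nuclei. Fn1, fibronectin, was at 545, 498, 276 and 73.0 CPM and also did not pass, at -1.64 ± 0.46. Trpm3 and Fn1 were chosen for mention after their values were seen.

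Among the lower calls, 14 genes had no UMI at ZT20, or 11 without St18, Prr5l and Mag, which the selection rule limits. At ZT8 the nuclei that met the fibroblast rule had 485 and 541 CPM of Mecom and 458 and 380.1 CPM of Ptprb, which mark endothelium. Both genes were at 0 in both ZT20 libraries, at least 19.7-fold and 15.1-fold lower against a floor of 3 UMIs over the ZT20 libraries. Leaving out the 6 nuclei, they were at 0 in ZT8 replicate 1 and at 159 and 103 CPM in ZT8 replicate 2. With UMIs in ZT8 replicate 2 only, neither gene had enough counts to be tested in that fit. Since both genes had UMIs at ZT8 only, they could enter any fit through that time alone. Their calls in the alternative fits that tested them are thus no separate support. The 6 nuclei include those above that met the endothelial marker rule, and their part in these calls was not tested. Kcnd2, a potassium channel gene, was at 909, 966, 51.8 and 91.3 CPM and fell by 3.79 ± 0.43 (edgeR adjusted p = 0.00317), and at -2.84 without the 6 nuclei. Pcdh9, a protocadherin gene, was at 2855, 2422, 346 and 91.3 CPM and fell by 3.66 ± 0.49, or was at -2.62 without them. Gpc5, a membrane proteoglycan of glia, was at 1313, 555, 34.5 and 36.5 CPM (-4.75 ± 0.65), and Erbb4, a neuregulin receptor, at 808, 498, 51.8 and 73.0 (-3.45 ± 0.48). These 4 genes were all more abundant in all other kept nuclei, at 2607, 4437, 815 and 979 CPM, than in fibroblast nuclei at ZT20. Csmd1, Sgcd, Kirrel3, Lrp1b and Opcml, also more abundant in other nuclei, were further calls among the 12 lower genes with the smallest p.

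Smooth muscle genes were at or near 0 in fibroblast nuclei at ZT20. Acta2, smooth muscle actin, on chromosome 19 from 34241090 to 34255590, had 52 and then 109 UMIs (350.1 and 307 CPM) at ZT8 and 0 and 0 at ZT20, at least 12.0-fold lower. Myh11, smooth muscle myosin, had 26 and 69 UMIs against 0 and 0, at least 7.08-fold lower. Tagln was at 256, 152, 17.3 and 18.3 CPM. The libraries did not overlap for any of the 3. Of the 52 Acta2 UMIs in ZT8 replicate 1, single nuclei held 32 and 15. Of the 109 in ZT8 replicate 2, single nuclei held 49, 15, 15 and 14. The ZT8 level thus came largely from few nuclei and does not describe each one. Acta2 was at 249 and 468 CPM at ZT8 without the 6 nuclei. The same direction held outside fibroblasts, since all other kept nuclei had 25.5 and 22.3 CPM of Acta2 at ZT8 and 0.819 and 0.728 at ZT20.

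Of 24 core clock genes 10 could be tested, and 3 were called, all lower at ZT20 (against 4.72% of all genes). Clock genes of low counts, such as Per3, could enter the test through their ZT8 counts alone. Per3, a Period repressor gene on chromosome 4 from 151003652 to 151044665, was at 168 and 152 CPM at ZT8 and 34.5 and 36.5 at ZT20, a log2 change of -2.22 ± 0.57 (edgeR adjusted p = 0.0412). Nr1d2, which encodes the haem-binding repressor REV-ERB beta and lies on chromosome 14 from 18204054 to 18239127, was at 215, 242, 69.1 and 54.8 CPM and changed by -1.96 ± 0.48 (edgeR adjusted p = 0.0348). Rorb, a nuclear receptor gene abundant in neurons, was at 229, 282, 17.3 and 73.0 CPM, a change of -2.60 ± 0.58 (edgeR adjusted p = 0.0230). For all 3 genes the ZT20 libraries were below both ZT8 libraries. The ZT20 values rest on 2 and 2 UMIs for Per3, 4 and 3 for Nr1d2 and 1 and 4 for Rorb. Without the 6 nuclei Per3 stood at 261 and 210.5 CPM and Nr1d2 at 273 and 279 at ZT8, with changes of -2.72 and -2.21, whereas Rorb stood at 174 and 90.2 CPM at ZT8 and was no longer tested. DESeq2 called none of the 3 (adjusted p = 0.36, 0.29 and 0.128), and with a replicate block Per3 and Nr1d2 had edgeR adjusted p = 0.0738 and 0.0699. The Per3 call was lost without ZT20 replicate 1 or 2, at changes of -2.22 and -2.34 (edgeR adjusted p = 0.0881 and 0.073). The Nr1d2 call was lost without ZT8 replicate 2 or ZT20 replicate 2, at -1.96 and -1.89 (edgeR adjusted p = 0.281 and 0.0754), and the Rorb call without ZT8 replicate 2, at -2.51 (0.161).

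The other clock genes did not pass. Dbp, a PAR bZIP activator under BMAL1 control, was at 114 and 152 CPM at ZT8 and 0 and 54.8 at ZT20 (-2.41 ± 0.78, edgeR adjusted p = 0.0890). Arntl, which encodes BMAL1 itself, was at 20.2 and 39.4 CPM at ZT8 and 104 and 109.5 at ZT20 (1.59 ± 0.46, edgeR adjusted p = 0.0695). Their libraries did not overlap, with Arntl in the opposite direction to Per3, Nr1d2 and Dbp. The related factors Tef and Hlf were at -0.61 ± 0.41 and -0.39 ± 0.32, Rora at 0.40 ± 0.30 and Clock at -0.29 ± 0.50. The median over the 10 tested clock genes was -0.59. In endothelial nuclei Per3 was at -2.63 and Nr1d2 at -1.17, neither called, where 105 of 3859 genes were called (2.72%; 0.933% higher and 1.79% lower). In all other kept nuclei, where 10295 of 21331 genes were called (48.3%), they were at -0.15 and -0.34.

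**Figure D5:**
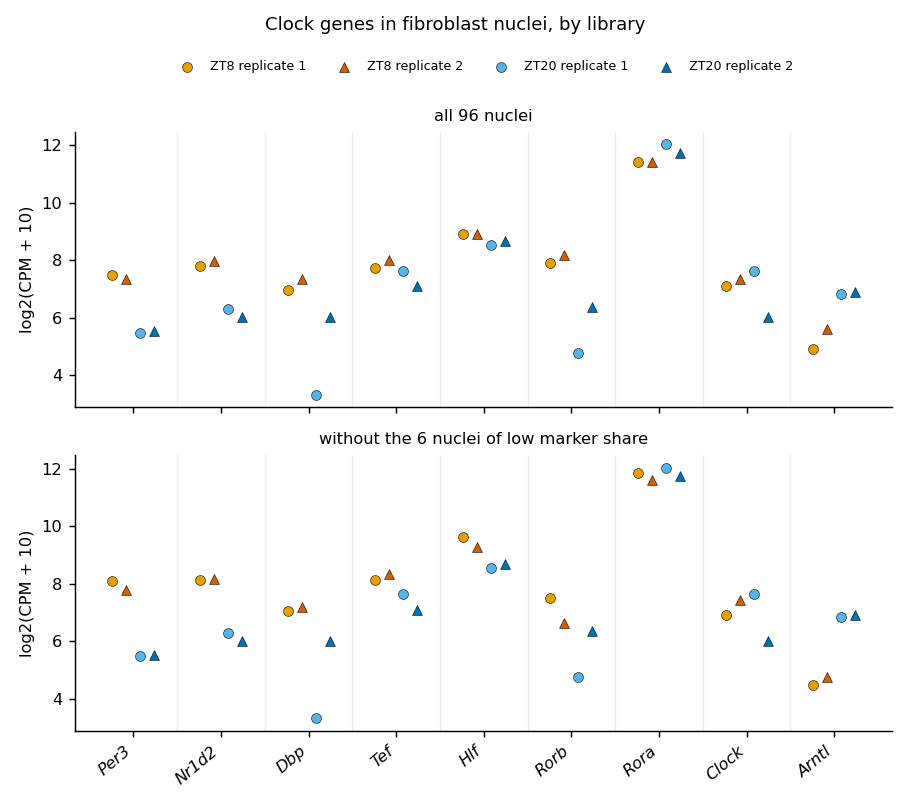
Clock genes as log2(CPM + 10) in each library, over all 96 fibroblast nuclei (top) and without the 6 nuclei of low marker share (bottom). Per3, Nr1d2 and Dbp are lower and Arntl is higher in both ZT20 libraries in both panels.

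The promoters of the Per3, Nr1d2 and Ptgds genes are shown to set the clock and prostaglandin results beside the sequence at their start. RefSeq windows of 300 bases (250 before to 50 after the start, GRCm38.p6) were searched on both strands for the E-box CACGTG, bound by BMAL1 and CLOCK, the D-box TTATGTAA, bound by the PAR bZIP factors, and the core TAGGTCA of the ROR and REV-ERB element. No match overlapped another. Of 9 genes looked up 7 had an entry. Capitals mark the D-box matches.

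Per3 (chr4:151044616-151044915, minus strand): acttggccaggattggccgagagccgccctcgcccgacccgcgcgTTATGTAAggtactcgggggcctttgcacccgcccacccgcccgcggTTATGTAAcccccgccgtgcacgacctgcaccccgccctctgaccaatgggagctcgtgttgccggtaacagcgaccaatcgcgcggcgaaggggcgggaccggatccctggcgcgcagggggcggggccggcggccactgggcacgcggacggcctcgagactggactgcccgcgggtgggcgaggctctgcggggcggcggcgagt

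Nr1d2 (chr14:18239057-18239356, minus strand): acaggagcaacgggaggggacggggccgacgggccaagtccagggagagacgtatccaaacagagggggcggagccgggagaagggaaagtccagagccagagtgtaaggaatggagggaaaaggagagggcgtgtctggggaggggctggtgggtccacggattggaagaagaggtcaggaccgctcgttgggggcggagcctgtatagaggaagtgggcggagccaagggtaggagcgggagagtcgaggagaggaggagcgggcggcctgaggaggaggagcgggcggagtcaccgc

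Ptgds (chr2:25469700-25469999, minus strand): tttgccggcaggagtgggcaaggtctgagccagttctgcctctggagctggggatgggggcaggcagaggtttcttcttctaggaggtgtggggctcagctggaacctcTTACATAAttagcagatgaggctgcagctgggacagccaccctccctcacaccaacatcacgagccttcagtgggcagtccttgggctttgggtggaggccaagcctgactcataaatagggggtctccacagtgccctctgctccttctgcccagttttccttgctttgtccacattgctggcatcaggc

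The Per3 window held 2 D-boxes, beginning 205 and 158 bases before the start, and the Ptgds window held 1 on the opposite strand, beginning 141 bases before it. The D-box letters were present in 0.938% of all 32851 promoter windows, the E-box in 7.15% and the ROR core in 2.61%. The Nr1d2 window and both windows of Rorb held none of the 3, nor did those of Ranbp3l, Apod and Itih5. A match describes the letters in this window and does not show that a factor binds there.

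Stress and housekeeping lists held no call. All 9 tested genes of the endoplasmic reticulum chaperone list were above 0, with a median log2 change of 0.83, and Hspa5, the chaperone BiP, was at 128, 129.5, 311 and 310.4 CPM (1.18 ± 0.37, edgeR adjusted p = 0.0827). The ZT20 libraries were above the ZT8 libraries for Hspa5, and all other kept nuclei changed by 0.95. The 6 tested heat shock genes were also all above 0, with a median of 0.79, and none passed. In both lists genes of low counts could enter through ZT20 alone, so these signs are a description. Of 5 tested glucocorticoid response genes, 11 mitochondrially encoded genes and 1 immediate early gene none passed. The mitochondrial median was 0.11 and the glucocorticoid median -0.23.

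Oxt, the oxytocin peptide gene of PVN neurons, was among the higher calls in fibroblast nuclei. It was at 20.2 and 36.6 CPM at ZT8 and 259 and 201 at ZT20, a log2 change of 2.77 ± 0.49 (edgeR adjusted p = 0.00657). All other kept nuclei had 10.2 and 21.8 CPM at ZT8 and 213 and 208 at ZT20, and endothelial nuclei changed by 3.47. At ZT20 the Oxt level in fibroblasts was thus near that of all other nuclei. At ZT8 it was above theirs in both libraries, but on low counts, and that difference was not tested. The peptide genes Sst (6.73, 5.63, 104 and 91.3 CPM) and Avp (6.73, 5.63, 51.8 and 54.8) were likewise higher in both ZT20 libraries. These Sst and Avp values rest on low counts. The part of free RNA in these values was not tested. The Oxt call was lost without either ZT8 library (2.46 and 3.23).

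The change between the times was last compared with that in other nuclei, in a model with a class-by-time term. Genes of the selection rule were not taken out of these fits. The counts of calls, here and against endothelial nuclei, can thus include genes that chose the nuclei. Against all other kept nuclei 42 of 19676 genes changed more toward ZT20 in fibroblasts (0.213%) and 180 changed less (0.915%), 222 in all (1.13%). Lama1 differed by 2.22 ± 0.34, Itih5 by 1.75 ± 0.34, Apod by 2.58 ± 0.36, Tbx18 by 3.80 ± 0.71 and Col3a1 by 3.39 ± 0.66, each higher in fibroblasts, and without the 6 nuclei they were at 1.83, 1.64, 2.36, 3.37 and 2.90. Without those nuclei 16 genes differed upward and 29 downward, and leaving out ZT8 replicate 1 or ZT8 replicate 2 left no call (edgeR, with 622 and 492 genes at an unadjusted p under 0.05). Leaving out ZT20 replicate 1 or 2 left 109 and 71 calls.

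Against endothelial nuclei 9 of 4373 genes differed upward (0.206%) and 11 downward (0.252%), 20 in all (0.457%). Bgn, the proteoglycan biglycan, was at 222 and 129.5 CPM at ZT8 and 328 and 419.9 at ZT20 in fibroblasts, and at 271 and 155 against 0 and 0 in endothelial nuclei. Kcnt2, a sodium-gated potassium channel gene, was at 350.1, 267, 346 and 676 CPM in fibroblasts and at 498, 372, 34.3 and 26.9 in endothelial nuclei, a difference of 4.45 ± 0.60 (edgeR adjusted p = 0.0113) that was 3.97 without the 6 nuclei. In both genes the fibroblast libraries kept or raised their level while the endothelial libraries were lower at ZT20. The fit without the 6 nuclei gave 6 genes, all upward. Without ZT20 replicate 2 there were 0 calls (641 genes at an unadjusted p under 0.05), without ZT20 replicate 1 there were 5, and without ZT8 replicate 1 or 2 there were 113 and 49.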

How the data were processed

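The authors deposited filtered matrices of whole-number UMI counts per gene and barcode, made with Cell Ranger 7.0.0 per the file headers, with STAR 2.6 and mm10 named in the submitters' processing notes. Nuclei were selected in Python 3.11.15 with scanpy 1.11.5. For each class of nuclei the counts of a library were added up and tested with edgeR 4.0.16 (filterByExpr, TMM, robust quasi-likelihood fit, Benjamini-Hochberg threshold 0.05) in R 4.3.3, with DESeq2 1.42.0 as an alternative. Class-by-time models carried the library as a covariate. Scrublet's automatic threshold marked 1, 0, 1 and 0 barcodes, so doublets were not removed, and an alternative left out the highest scores. Loci are from GENCODE M21, where 32158 of 32285 features matched by identifier. On simulated counts for 2836 genes the test recovered 6% of 2-fold and 69% of 8-fold changes, with 3 false calls. The simulation gave all genes the same dispersion (relative spread between libraries) and held no single nuclei. Its false calls thus do not measure those in the real fit.

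Members and gene lists were chosen with earlier results of these data known. Named genes were the 7 rule genes, tested clock genes, up to 12 called genes per direction with the smallest p and separate libraries, up to 6 most abundant members per list with all called members, up to 15 genes most enriched over other nuclei, and up to 8 called genes per direction of each class-by-time test. Genes of the marker lists and those said to be chosen afterwards stand outside this rule. Some genes that it selects are not reported here.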

Additional observations from a re-analysis of the deposited data

Results flagged for a closer look

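The genes below changed between ZT8 and ZT20 by a different amount in fibroblast nuclei than in other nuclei of the same libraries, by the class-by-time term of edgeR's quasi-likelihood test. Against endothelial nuclei, Bgn (adjusted p = 0.0113), Col3a1 (0.0236), Kcnt2 (0.0113), Pam (0.0236), Pid1 (0.0281), Mir99ahg (0.0281) and Rhoj (0.0281) changed more toward ZT20 in fibroblasts. Endothelial nuclei had no Bgn or Col3a1 UMI at ZT20. For Kcnt2, Pam, Pid1, Mir99ahg and Rhoj the differences were 4.45, 2.74, 3.96, 2.73 and 3.33 on the log2 scale. In the opposite direction stood Tmtc2 (adjusted p = 0.0202), St6galnac3 (0.0236), Atp10a (0.0236), Pcdh11x (0.0281) and Slc6a6 (0.0281). None of these downward calls was left without the 6 nuclei of low marker share, where 6 genes were called upward and 0 downward.

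Against all other kept nuclei, Lama1 (edgeR adjusted p = 8.93e-08), Apod (2.9e-09), Tbx18 (4.82e-05), Clmp (8.2e-05), Itih5 (0.000104), Col3a1 (0.000104) and Lamc1 (0.000122) changed more toward ZT20 in fibroblasts. Pcdh9 (edgeR adjusted p = 7.66e-12), Gpc5 (2.53e-10), Erbb4 (2.53e-10), Nkain2 (6.71e-10), Kcnd2 (4.29e-09), Csmd1 (6.73e-08), Plcb1 (1.09e-07) and Sgcd (3.37e-07) changed toward ZT8. Without the 6 nuclei of low marker share these 8 differences were -2.56, -3.98, -3.15, -2.37, -2.81, -2.37, -2.60 and -3.14 on the log2 scale.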

How the results depend on the processing

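Against 199 genes called between the times (65 higher, 134 lower), DESeq2 gave 71 calls in all, a fit with no filter on low counts 343, and the replicate block 119. No pairing was taken from the replicate numbers: deviations of same-numbered libraries correlated at -0.0472 over 2836 genes. Without the 6 nuclei of low marker share 86 genes were called, in matrix-led nuclei only 26 (2 higher and 24 lower of 745 tested), and without nuclei with markers of another class 10. Leaving out 1 library gave 150 to 361 calls, with 361 without ZT20 replicate 1. The difference from endothelial nuclei gave 20 calls, 39 with no library covariate, 6 without the 6 nuclei, and 0 to 113 with a library left out. The difference from all other kept nuclei gave 222 calls, 422 with no library covariate, 45 without the 6 nuclei, and 0 to 109 with a library left out. The causes were not tested. The nuclei share changed sign when counted per endothelial nucleus (0.836 percentage points). Left-out libraries moved it between -0.373 and -0.167, and moved the median UMI difference between -1481 and 208, the latter without ZT8 replicate 2. Of 2064 values for 150 named genes, 1814 stayed on their side of the threshold, 117 of them uncalled values that changed sign, while 209 lost a call and 38 gained one. Another 3 values turned direction, Col4a5 in matrix-led nuclei (-0.16), and Col25a1 and Jund without ZT20 replicate 1. With 1 library left out Col25a1 ranged from -2.01 to 0.80 and Jund from -7.18 to 1.06. The alternatives without the 6 nuclei and in matrix-led nuclei were chosen after seeing the data. At 57887 and 54774 UMIs at ZT20, only large changes could be detected.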
